A study of Mus musculus with 2 samples.

Results

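The 40 genes described here are transcribed in cells that replicate their DNA or divide, 20 of them S phase genes (Mcm2 to Mcm7, Pcna, Tyms, Rrm1, Rrm2, Gins2, Cdc6, Cdc45, Chaf1b, Dtl, Ung, Fen1, Tipin, Hells and Uhrf1) and 20 of them mitosis genes (Top2a, Mki67, Cdk1, Birc5, Cdca8, Ccnb1, Ccnb2, Cenpf, Cenpa, Tpx2, Nusap1, Ube2c, Hmmr, Kif11, Prc1, Aurkb, Bub1, Cdc20, Ccna2 and Ttk). They were taken by symbol from the 32285 genes of the count tables, and all 40 were found. The tables hold single-cell RNA-seq counts of whole spinal cords of FVB mice at postnatal day 4, from a Con library and an SMA library. SMA mice were of genotype mSmn-/-, hSMN22tg/0, the severe Taiwanese model of spinal muscular atrophy (SMA), in which the mouse Smn gene is disrupted and copies of human SMN2 are carried as a transgene. Con mice were mSmn+/-, hSMN22tg/0, heterozygous littermates that carry the same transgene, so that the libraries differ by labelled genotype in the mouse gene only. Cords of littermates were pooled into each library, so neither group had a replicate, no difference could be set against animal-to-animal spread, and no test was made. All intervals below are at the 95% level and cover counting error only.

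Before a cell divides it must copy its genome once. In late G1 the MCM helicase is loaded onto origins, and in S phase it unwinds DNA for polymerases that are held in place by the PCNA clamp, while thymidylate synthase and ribonucleotide reductase supply nucleotides. These S phase genes are classical targets of E2F factors. The mitosis genes come on later, in G2, under the DREAM and MMB-FOXM1 complexes that bind CHR and CCAAT elements, and their products condense chromosomes, build the spindle and, through the anaphase-promoting complex, end mitosis. In the early postnatal spinal cord, oligodendrocyte precursor cells (OPC) are known as the main dividing population, and microglia also multiply, while committed precursors (COP) and oligodendrocytes have left the cycle.

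The difference in promoter elements between the sets can be read in the reference sequence. Of the 40 genes, 34 had a promoter entry in the RefSeq table of build GRCm38.p6 (17 S phase and 17 mitosis genes), each covering 250 bases before to 50 bases after the first start listed for the gene. The CHR element was searched as TTTGAA or TTCGAA, the CCAAT box as CCAAT, and the E2F element as TTTCCCGC, TTTCGCGC, TTTGCCGC or TTTGGCGC, on both strands and with overlaps allowed. CHR was found in 14 of 17 mitosis promoters (82.4%) and 4 of 17 S phase promoters (23.5%), against 19.4% of all 27025 promoters. The E2F element was in 7 of 17 S phase promoters (41.2%) and 1 of 17 mitosis promoters, that of Cdk1, against 2.32% of all. CCAAT was in 15 mitosis and 11 S phase promoters, against 37.9% of all, and 14 mitosis promoters held both CHR and CCAAT, against 7.70% of all. A match describes letters in these windows and is not a measured binding site. The windows below surround the CHR elements of the mitosis genes, and the E2F elements of the S phase genes, with most UMIs among those of the set whose promoter held the element, Ube2c (chr2:164769843-164769962, plus strand) and Cenpa (chr5:30666845-30666935, plus strand) for CHR, and Mcm7 (chr5:138171834-138171923, minus strand) and Mcm6 (chr1:128359689-128359808, minus strand) for E2F. Pcna and Rrm2, which had more UMIs than Mcm7, held no E2F match in their windows. The windows are printed 5′ to 3′ on the strand of the gene, with the matched element, or its reverse complement, in capitals, and the Mcm6 window opens with the end of another E2F match that lies across its left edge.
Ube2c: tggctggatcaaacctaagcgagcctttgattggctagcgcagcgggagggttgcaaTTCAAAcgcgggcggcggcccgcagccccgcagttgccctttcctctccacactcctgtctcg
Cenpa: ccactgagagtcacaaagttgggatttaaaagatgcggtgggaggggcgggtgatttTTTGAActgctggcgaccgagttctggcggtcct
Mcm7: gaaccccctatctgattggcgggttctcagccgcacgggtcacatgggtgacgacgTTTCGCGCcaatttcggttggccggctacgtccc
Mcm6: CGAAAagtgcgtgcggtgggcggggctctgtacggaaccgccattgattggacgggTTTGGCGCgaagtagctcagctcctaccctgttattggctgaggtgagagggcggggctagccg

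The deposited tables list 25419 Con-labelled barcodes, totalling 97894084 UMIs (unique molecular identifiers, each marking 1 captured RNA molecule), and 26921 SMA-labelled barcodes, totalling 85872075. Of these barcodes 8163 were listed in both libraries, and the SMA copies among them were left out, which removed 6509 of the 13296 SMA-labelled barcodes that passed the limits on genes and mitochondrial share. This left 6787 SMA-labelled and 8917 Con-labelled cells with medians of 6109 and 6229 UMIs. They fell into 29 clusters, of which 7 were left unnamed by their markers, with 10.3% of SMA-labelled and 14.9% of Con-labelled cells in them, and 11 classes had at least 50 cells in each library. The members and other cell-cycle genes had been kept out of the clustering. As an alternative, all kept barcodes were clustered with the SMA copies of shared barcodes included. Of 5598 such copies whose Con copy was also clustered, 82.2% then had the class of that Con copy, unnamed counted as a class. The shared copies are thus not taken as further SMA cells, and the origin of the sharing was not tested. Smn1, the targeted gene, was at 51.4 CPM (49.3 to 53.6) in Con-labelled and 51.8 CPM (49.5 to 54.2) in SMA-labelled named cells other than erythroid-like ones. CPM are counts per 1000000 UMIs of the same cells, and the log2 ratio was 0.011 (-0.078 to 0.10). Whether its counted 3′ end lies in the disrupted part of the allele was not given in the sources used here, so Smn1 checks neither label. Con-labelled and SMA-labelled, or Con and SMA for short, refer below to the labels only.

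Both sets were highest in OPC-like cells, the precursors of oligodendrocytes. Summed over its 20 genes, the S phase set stood at 1500.1 CPM in Con-labelled and 1172 CPM in SMA-labelled OPC-like cells, and the mitosis set at 2116 and 2236 CPM. OPC-like cells made up 17.1% of Con-labelled cells but held 40.1% of all S phase UMIs and 41.1% of all mitosis UMIs. In SMA-labelled cells the same shares were 27.5%, 43.4% and 51.8%. In Con-labelled cells 18 of the 20 S phase genes and 20 of the 20 mitosis genes had their highest CPM in OPC-like cells, and in SMA-labelled cells 16 and 18 did. The heatmap of all 40 genes across the 11 classes gives each of these levels.

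**Figure D1:**
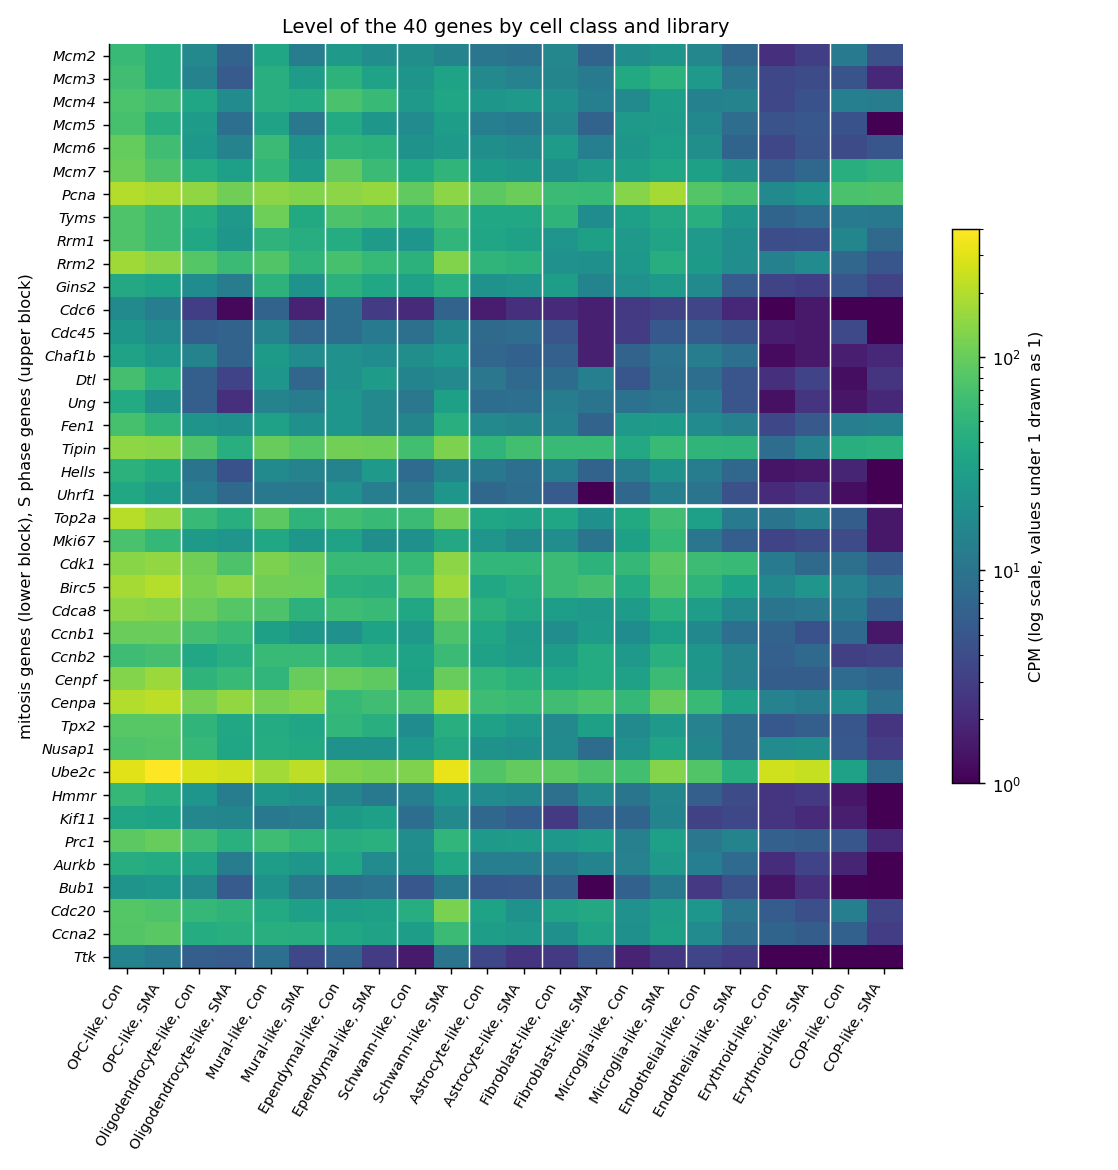
Level of each of the 40 genes (rows, S phase above mitosis) in the 11 cell classes compared (columns), in CPM on a log color scale, with the Con and SMA libraries side by side. The OPC-like columns hold the highest value for 18 S phase and 20 mitosis genes in Con and for 16 and 18 in SMA.

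Below OPC-like cells in the Con-labelled order of S phase sums over the 11 classes compared, and setting aside oligodendrocyte-like cells, came ependymal-like cells (955 CPM) and mural-like cells (935 CPM), the pericytes and smooth muscle of vessels, whose counting intervals (896 to 1017 and 890.3 to 980.4) overlapped. Schwann-like (535 CPM), microglia-like (495 CPM), astrocyte-like (464 CPM), endothelial-like (446 CPM) and fibroblast-like cells (421 CPM) followed. COP-like cells, the committed step after the OPC, were at 262 CPM for S phase and 154 CPM for mitosis. Erythroid-like cells had the lowest S phase sum, 91.9 CPM, beside a mitosis sum of 396 CPM of which Ube2c alone made 65.6%. In oligodendrocyte-like cells the sums (639 and 1314 CPM) came from a cluster of shallow cells, with a median of 1638 UMIs and a mitosis sum of 1600.0 CPM, while the small cluster of deep oligodendrocyte-like cells stood at 85.5 CPM. The 26 Con-labelled and 46 SMA-labelled neuron-like cells, too few to be compared, had mitosis sums of 26.6 and 129 CPM.

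**Figure D2:**
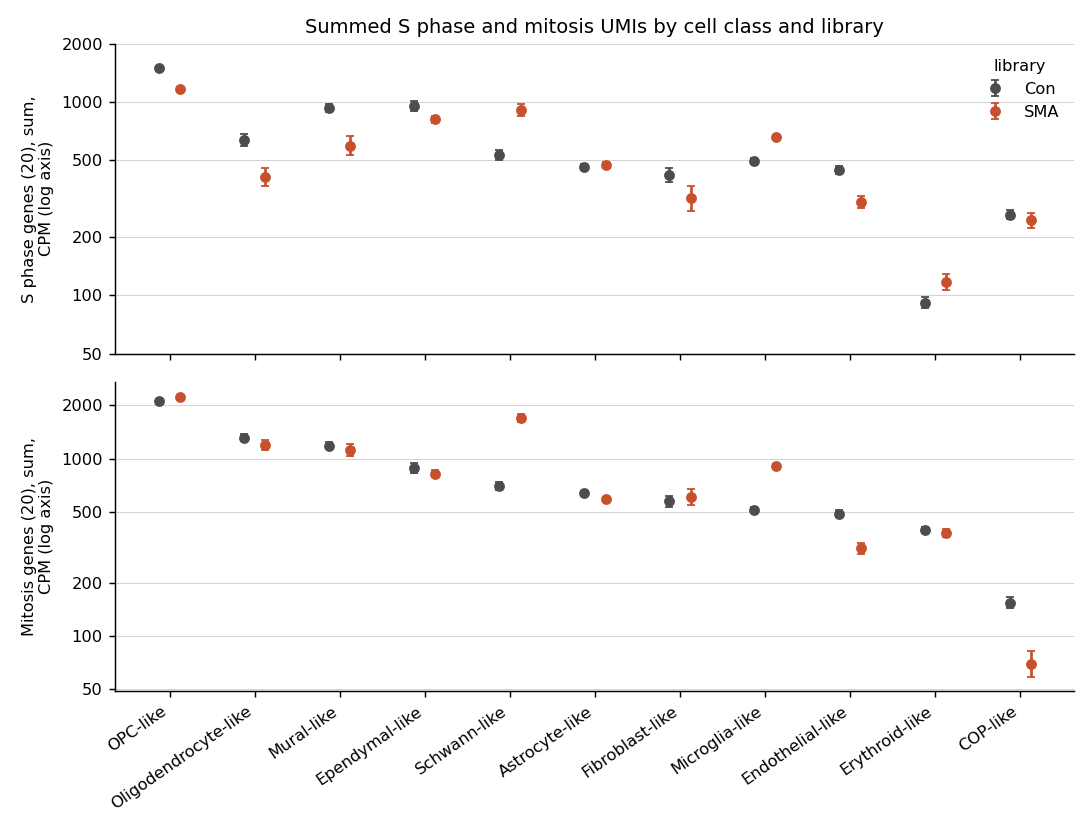
Summed CPM of the 20 S phase genes (upper panel) and of the 20 mitosis genes (lower panel) on log axes in each of the 11 classes, with 1 point per library and bars for the exact Poisson interval. OPC-like cells were highest in both panels for Con, and the libraries lie furthest apart for COP-like and Schwann-like cells in the mitosis panel.

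Within each set the UMIs were unevenly divided among the genes. Counts are of 3′ tags, 1 per captured molecule, so levels are not scaled by transcript length. Ube2c (ENSMUSG00000001403, chromosome 2, 164769898 to 164778822, plus strand, GENCODE M21 on GRCm38 as for all positions here), the ubiquitin-conjugating enzyme of the anaphase-promoting complex, made 14.4% of the mitosis UMIs of Con-labelled and 17.8% of those of SMA-labelled OPC-like cells. Pcna (ENSMUSG00000027342, chromosome 2, 132249162 to 132253314, minus strand), the sliding clamp of DNA polymerase, made 13.3% and 15.5% of the S phase UMIs there, and 27.1% and 26.7% in microglia-like cells. Reads of Pcna can also match processed pseudogene copies, and how such reads were counted was not given in the sources used here. The UMIs of a set were also unevenly spread over cells. The 10% of OPC-like cells with most mitosis UMIs held 65.4% of them in Con-labelled and 67.4% in SMA-labelled cells, against 39.9% and 44.6% for S phase. Genes of a set were counted in the same cells and are not independent of each other.

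In OPC-like cells the S phase set was lower in the library labelled SMA, and the mitosis set was not. The S phase sum was 1500.1 CPM (1475 to 1525) in Con-labelled and 1172 CPM (1152 to 1193) in SMA-labelled cells, a log2 ratio of -0.36 (-0.39 to -0.32). The mitosis sum was 2116 CPM (2086 to 2146) in Con-labelled and 2236 CPM (2208 to 2264) in SMA-labelled cells, a log2 ratio of 0.080 (0.052 to 0.11). For each mitosis UMI there were 0.709 S phase UMIs (0.694 to 0.725) in Con-labelled and 0.524 (0.513 to 0.536) in SMA-labelled cells, a log2 ratio of -0.44 (-0.48 to -0.39), a quantity in which the depth of the libraries cancels. The S phase and S phase over mitosis differences kept their sign under every alternative tried but were smaller with cell-cycle genes in the clustering, at -0.20 and -0.27. That alternative left 475 SMA-labelled and 519 Con-labelled cells, in clusters led by other cell-cycle genes, out of the OPC-like class, so it selected cells by the quantity compared. With them returned to the class, a choice made after seeing the data, the values were -0.30 and -0.35. The mitosis sum was at -0.034 with no upper limit on genes per cell, so no direction is drawn for it. In bulk sums over a class, fewer cells in S phase and less S phase RNA in each such cell cannot be told apart.

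All 20 S phase genes had at least 100 UMIs over both libraries in OPC-like cells, and 20 of 20 were lower in SMA-labelled cells, where 54.4% of the 10696 genes with as many UMIs were below 0. Of the 20, 19 had an interval wholly below 0 (background 18.7%), 5 were lower by 0.5 or more (background 2.75%), and 0 were higher by as much (background 2.67%). The median log2 ratio of the 20 was -0.40, against -0.025 over all genes tested. With all SMA barcodes kept, 20 of 20 were lower (background 52.5%), and among cells of at least 5000 UMIs 20 of 20 were (background 54.3%).

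The MCM subunits, which form the replicative helicase, ranged from -0.68 to -0.22. Mcm5 (ENSMUSG00000005410, chromosome 8, 75109569 to 75128439, plus strand) was at 70.1 CPM in Con-labelled and 43.7 CPM in SMA-labelled cells (log2 ratio -0.68, -0.86 to -0.51). Mcm6 was at 98.1 CPM in Con-labelled and 63.1 CPM in SMA-labelled cells (log2 ratio -0.64, -0.78 to -0.49). Mcm3 was at 63.1 CPM in Con-labelled and 40.7 CPM in SMA-labelled cells (log2 ratio -0.63, -0.81 to -0.45). These are the subunits with the widest gaps between libraries. Mcm7, whose promoter with its E2F element is printed above and whose difference fell just short of the 0.5 limit, was at 105 CPM in Con-labelled and 74.2 CPM in SMA-labelled cells (log2 ratio -0.50, -0.63 to -0.36). Mcm2 was at 56.2 CPM in Con-labelled and 40.9 CPM in SMA-labelled cells (log2 ratio -0.46, -0.65 to -0.27). Mcm4, with the narrowest gap of the MCM genes, was at 73.7 CPM in Con-labelled and 63.4 CPM in SMA-labelled cells (log2 ratio -0.22, -0.37 to -0.063). All 6 MCM genes had intervals below 0. Among the factors that load or accompany the helicase, Cdc6, which helps to load MCM onto origins, was at 17.2 CPM in Con-labelled and 13.05 CPM in SMA-labelled cells (log2 ratio -0.40, -0.73 to -0.060). Cdc45, a subunit of the active CMG helicase, was at 23.8 CPM in Con-labelled and 17.9 CPM in SMA-labelled cells (log2 ratio -0.41, -0.70 to -0.13). Gins2, of the GINS complex in the same helicase, was at 37.4 CPM in Con-labelled and 32.1 CPM in SMA-labelled cells (log2 ratio -0.22, -0.44 to -0.0031).

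At the replication fork the members differed more among themselves. Pcna was at 199 CPM in Con-labelled and 182 CPM in SMA-labelled cells (log2 ratio -0.13, -0.22 to -0.037). Tipin, which protects stalled forks together with Timeless, was the 1 member whose interval crossed 0, at 143 CPM in Con-labelled and 139 CPM in SMA-labelled cells (log2 ratio -0.044, -0.15 to 0.064). Fen1, the flap endonuclease that trims Okazaki fragments, was at 69.8 CPM in Con-labelled and 50.1 CPM in SMA-labelled cells (log2 ratio -0.48, -0.65 to -0.31). Thus the most abundant fork genes were those with the smallest differences. Of the genes for nucleotide supply, Tyms (thymidylate synthase) was at 76.03 CPM in Con-labelled and 59.998 CPM in SMA-labelled cells (log2 ratio -0.34, -0.50 to -0.19). Rrm1 (large subunit of ribonucleotide reductase) was at 77.01 CPM in Con-labelled and 59.4 CPM in SMA-labelled cells (log2 ratio -0.38, -0.53 to -0.22). Rrm2, its small subunit, was at 169 CPM in Con-labelled and 139.6 CPM in SMA-labelled cells (log2 ratio -0.27, -0.38 to -0.17).

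The widest gap of all 40 genes in OPC-like cells was that of Ung (ENSMUSG00000029591, chromosome 5, 114130386 to 114139323, plus strand), the glycosylase that removes uracil from DNA, at 38.7 CPM in Con-labelled and 21.04 CPM in SMA-labelled cells (log2 ratio -0.88, -1.13 to -0.64). Dtl, the receptor that directs a CUL4 ubiquitin ligase to proteins bound to PCNA, was at 68.9 CPM in Con-labelled and 43.3 CPM in SMA-labelled cells (log2 ratio -0.67, -0.85 to -0.50). Uhrf1, which carries DNA methylation over to the new strand, was at 35.7 CPM in Con-labelled and 26.9 CPM in SMA-labelled cells (log2 ratio -0.41, -0.64 to -0.17). The other members that act on chromatin also had intervals below 0. Chaf1b, of the chromatin assembly factor CAF-1, was at 31.5 CPM in Con-labelled and 24.3 CPM in SMA-labelled cells (log2 ratio -0.38, -0.62 to -0.13). Hells, a chromatin remodeler, was at 46.9 CPM in Con-labelled and 37.9 CPM in SMA-labelled cells (log2 ratio -0.31, -0.51 to -0.11).

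The 20 mitosis genes all passed the limit of 100 UMIs as well, and they went both ways in OPC-like cells, 9 lower and 11 higher in the library labelled SMA (background 45.6% above 0), with a median log2 ratio of 0.040. Intervals lay wholly below 0 for 4 (background 18.7%, so near the background) and wholly above 0 for 6 (background 14.2%), and none of the 20 was past 0.5 in either direction. The members with an interval wholly above 0 were led by Ube2c, at 304 CPM in Con-labelled and 399 CPM in SMA-labelled cells (log2 ratio 0.39, 0.32 to 0.46). Cenpf, a kinetochore protein that accumulates in G2, was at 132 CPM in Con-labelled and 162 CPM in SMA-labelled cells (log2 ratio 0.30, 0.19 to 0.41). Birc5 (survivin), of the chromosomal passenger complex, was at 179 CPM in Con-labelled and 205 CPM in SMA-labelled cells (log2 ratio 0.20, 0.10 to 0.29). These genes belong to different steps, centromere, passenger complex and exit from mitosis. Cdk1 (ENSMUSG00000019942, chromosome 10, 69335146 to 69352938, minus strand), the kinase that drives mitotic entry, was at 137 CPM in Con-labelled and 153 CPM in SMA-labelled cells (log2 ratio 0.17, 0.058 to 0.27). Cenpa, the centromeric histone H3 variant, was at 199 CPM in Con-labelled and 222 CPM in SMA-labelled cells (log2 ratio 0.16, 0.074 to 0.25). Prc1, which bundles the central spindle, was at 89.3 CPM in Con-labelled and 98.7 CPM in SMA-labelled cells (log2 ratio 0.14, 0.012 to 0.28).

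The mitosis genes with an interval wholly below 0, whose number lay near the background, were Top2a, Mki67, Hmmr and Ttk. Top2a (ENSMUSG00000020914, chromosome 11, 98992943 to 99024189, minus strand), the topoisomerase that untangles replicated chromosomes and is already made in S phase, was at 208 CPM in Con-labelled and 157 CPM in SMA-labelled cells (log2 ratio -0.40, -0.50 to -0.31). Mki67, the gene of the proliferation marker Ki-67, was at 71.4 CPM in Con-labelled and 53.7 CPM in SMA-labelled cells (log2 ratio -0.41, -0.58 to -0.25). Hmmr, a spindle-associated hyaluronan receptor, was at 53.7 CPM in Con-labelled and 42.9 CPM in SMA-labelled cells (log2 ratio -0.32, -0.51 to -0.14), and Ttk, the checkpoint kinase MPS1, was at 14.9 CPM in Con-labelled and 11.5 CPM in SMA-labelled cells (log2 ratio -0.37, -0.74 to -0.012). The other cyclins and passenger proteins had intervals that crossed 0. Ccnb1 was at 102 CPM in Con-labelled and 103 CPM in SMA-labelled cells (log2 ratio 0.0098, -0.12 to 0.14). Ccnb2 was at 61.9 CPM in Con-labelled and 68.7 CPM in SMA-labelled cells (log2 ratio 0.15, -0.0089 to 0.31). Ccna2, cyclin A, which acts in S phase and G2, was at 80.2 CPM in Con-labelled and 87.01 CPM in SMA-labelled cells (log2 ratio 0.12, -0.023 to 0.26). The passenger complex corrects faulty attachments of chromosomes to the spindle, and of its subunits Cdca8 (borealin) was at 142 CPM in Con-labelled and 134 CPM in SMA-labelled cells (log2 ratio -0.080, -0.19 to 0.029). Aurkb, its kinase, was at 42.01 CPM in Con-labelled and 39.8 CPM in SMA-labelled cells (log2 ratio -0.078, -0.28 to 0.12). Tpx2, which activates Aurora A on the spindle, was at 84.3 CPM in Con-labelled and 84.2 CPM in SMA-labelled cells (log2 ratio -0.0031, -0.14 to 0.14). Cdc20, an activator of the anaphase-promoting complex, was at 83.2 CPM in Con-labelled and 76.4 CPM in SMA-labelled cells (log2 ratio -0.12, -0.27 to 0.021). The 3 members not named so far were Kif11 at -0.12, Nusap1 at 0.070 and Bub1 at 0.16 on the log2 scale. Like Tpx2 and Cdc20 they had intervals that crossed 0, unlike Hmmr, Ttk and Prc1, which also act at the spindle or its checkpoint.

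**Figure D3:**
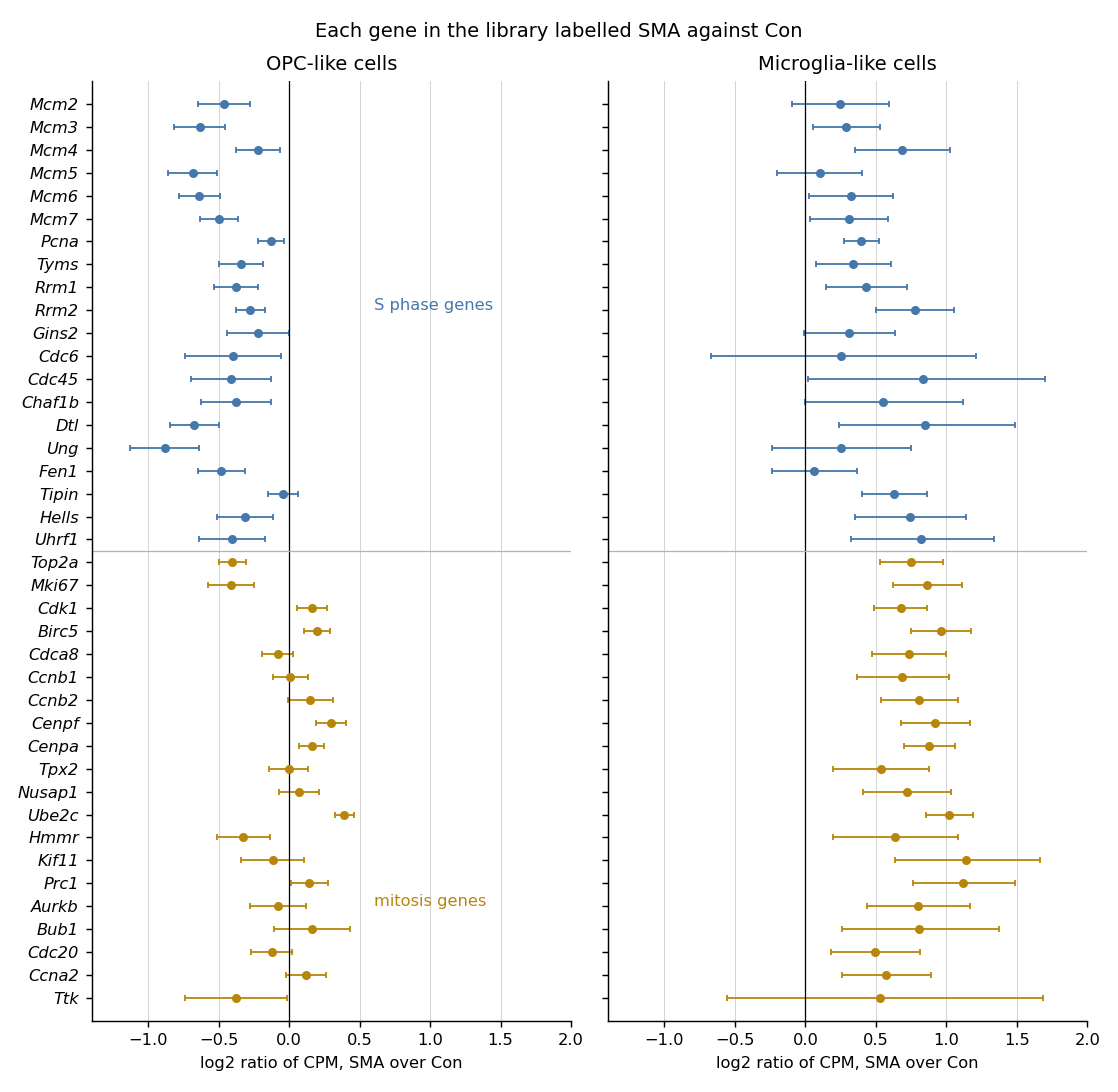
Log2 ratio of SMA over Con for each of the 40 genes in OPC-like and in microglia-like cells, with points for the ratio and bars for the 95% interval from counting error. All 20 S phase points lie below 0 in OPC-like cells and the mitosis points lie on both sides, while all 40 points lie above 0 in microglia-like cells.

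Markers of other cell types also differed between the libraries within OPC-like cells. The 10 OPC markers summed to 5686 CPM in Con-labelled and 5359 CPM in SMA-labelled cells, with 4 of 10 lower. The 10 oligodendrocyte markers stood at 1401 and 916 CPM (9 of 10 lower), the 8 COP markers at 974 and 831 CPM (8 of 8 lower), and the 8 erythroid markers, mostly haemoglobin, at 3169 and 2682 CPM (6 of 8 lower and 2 at 0 in both libraries). At a low level, the 9 Schwann markers stood at 32.7 and 10.8 CPM (6 of 9 lower). The 8 ependymal markers went the other way, at 12.8 and 22.6 CPM (8 of 8 higher). So did the sum of the 10 astrocyte markers, at 934 and 982 CPM, though 7 of 10 were lower. Their part in the S phase difference was not tested. Within the largest OPC-like cluster alone, of 1447 Con-labelled and 1775 SMA-labelled cells, the S phase sums were 1519 and 1185 CPM and the mitosis sums 2137 and 2303 CPM. In the other OPC-like cluster, of 81 Con-labelled and 91 SMA-labelled cells, the S phase sums were 1192 and 932 CPM. The mitosis sum of that cluster was instead lower in SMA-labelled cells, at 1779 CPM in Con-labelled and 923 CPM in SMA-labelled ones.

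Microglia-like cells, the resident immune cells of the cord, had more of both sets in the library labelled SMA. The S phase sum was 495 CPM (479 to 513) in Con-labelled and 662 CPM (644 to 679.9) in SMA-labelled cells, a log2 ratio of 0.42 (0.35 to 0.48). The mitosis sum was 517 CPM (499 to 534) in Con-labelled and 912 CPM (891 to 933) in SMA-labelled cells, a log2 ratio of 0.82 (0.76 to 0.88). Since the mitosis set differed by more, S phase UMIs per mitosis UMI were 0.959 (0.914 to 1.01) in Con-labelled and 0.726 (0.7003 to 0.752) in SMA-labelled cells, a log2 ratio of -0.40 (-0.49 to -0.32). In both OPC-like and microglia-like cells, then, S phase UMIs were fewer for each mitosis UMI in the library labelled SMA, although the S phase sums themselves differed in opposite directions.

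All 40 genes were higher in SMA-labelled microglia-like cells. Of the 37 that had at least 100 UMIs there, 37 were above 0 (background 58.1% of 8580 genes), 31 had an interval wholly above 0 (background 19.5%), and 25 were higher by 0.5 or more (background 5.58%), 7 of them S phase and 18 mitosis genes. The 3 with fewer UMIs were Cdc6, Cdc45 and Ttk. The mitosis genes ranged from 0.49 for Cdc20, the activator of the anaphase-promoting complex, to 1.14 for Kif11, the motor that separates spindle poles. Among cells of at least 5000 UMIs 20 of 20 S phase and 20 of 20 mitosis genes were higher (background 57.7%). With all SMA barcodes kept the same counts were higher (background 56%), but the class then held 965 SMA-labelled cells, fewer than the 1083 compared here, since clusters whose leading markers were those of microglia stayed unnamed, so this did not bring the shared barcodes into the comparison. With those clusters counted in, a choice made after seeing the data, 2070 SMA-labelled and 1153 Con-labelled cells had a log2 ratio of 0.34 for the S phase sum and 0.67 for the mitosis sum.

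Of the most abundant mitosis genes, Ube2c was at 64.9 CPM in Con-labelled and 132 CPM in SMA-labelled cells (log2 ratio 1.02, 0.86 to 1.19). Birc5 was at 40.3 CPM in Con-labelled and 78.5 CPM in SMA-labelled cells (log2 ratio 0.96, 0.75 to 1.17). Cenpa was at 54.6 CPM in Con-labelled and 100.4 CPM in SMA-labelled cells (log2 ratio 0.88, 0.70 to 1.06). Each thus stood at more than 1.5 times its Con-labelled level. Cenpf was at 31.02 CPM in Con-labelled and 58.8 CPM in SMA-labelled cells (log2 ratio 0.92, 0.68 to 1.17). Mki67, which was lower in SMA-labelled OPC-like cells, was at 30.3 CPM in Con-labelled and 55.1 CPM in SMA-labelled cells (log2 ratio 0.86, 0.62 to 1.11). Top2a, likewise lower there, was at 37.9 CPM in Con-labelled and 63.6 CPM in SMA-labelled cells (log2 ratio 0.75, 0.53 to 0.97). The mitotic kinase and the cyclins that activate it were measured beside these. Cdk1 was at 54.6 CPM in Con-labelled and 87.1 CPM in SMA-labelled cells (log2 ratio 0.67, 0.49 to 0.86). Ccnb1 was at 18.2 CPM in Con-labelled and 29.4 CPM in SMA-labelled cells (log2 ratio 0.69, 0.36 to 1.02). Ccna2 was at 20.1 CPM in Con-labelled and 29.9 CPM in SMA-labelled cells (log2 ratio 0.57, 0.26 to 0.89).

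The S phase genes of microglia-like cells were more spread, from 0.064 for Fen1 to 0.85 for Dtl. Pcna was at 134 CPM in Con-labelled and 177 CPM in SMA-labelled cells (log2 ratio 0.40, 0.28 to 0.52). Tipin was at 37.4 CPM in Con-labelled and 57.9 CPM in SMA-labelled cells (log2 ratio 0.63, 0.40 to 0.86). Rrm2 was at 24.5 CPM in Con-labelled and 41.9 CPM in SMA-labelled cells (log2 ratio 0.78, 0.50 to 1.06). These were the S phase genes with most UMIs over all kept cells, besides Mcm7 and Tyms. Mcm7 was at 28.3 CPM in Con-labelled and 35.03 CPM in SMA-labelled cells (log2 ratio 0.31, 0.036 to 0.58). Tyms was at 29.3 CPM in Con-labelled and 37.2 CPM in SMA-labelled cells (log2 ratio 0.34, 0.074 to 0.61). Mcm5 and Ung, which had the widest gaps among MCM genes and among all members in OPC-like cells, had intervals that crossed 0 here. Mcm5 was at 24.9 CPM in Con-labelled and 26.7 CPM in SMA-labelled cells (log2 ratio 0.10, -0.20 to 0.40), and Ung at 9.28 CPM in Con-labelled and 11.05 CPM in SMA-labelled cells (log2 ratio 0.25, -0.24 to 0.75). The 10 microglia markers summed to 12089.8 CPM in Con-labelled and 10895 CPM in SMA-labelled cells (5 of 10 lower), the 8 erythroid markers to 28988 and 19908 CPM (5 of 8 lower), and the 10 OPC markers, those of the class with most cell-cycle RNA, to 228 and 257 CPM (2 of 10 lower). Their part in the result was not tested.

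Over the 11 classes each sum was lower in 7 and higher in 4. Intervals of the S phase sum lay below 0 in 6 classes and above 0 in 3, and those of the mitosis sum below 0 in 4 and above 0 in 3. S phase UMIs per mitosis UMI were fewer in the library labelled SMA in 7 classes, with the interval below 0 in 6 (OPC-like, microglia-like, mural-like, Schwann-like, fibroblast-like and oligodendrocyte-like cells) and above 0 in 3 (COP-like, erythroid-like and astrocyte-like cells). The ratio turned in 3 of these 9 classes, to 0.31 in oligodendrocyte-like cells with all SMA barcodes kept and to -0.067 in erythroid-like and -0.13 in COP-like cells with cell-cycle genes in the clustering. Among classes whose interval lay off 0, the S phase sum turned under at least 1 alternative in erythroid-like and oligodendrocyte-like cells, and the mitosis sum in OPC-like, COP-like, astrocyte-like, endothelial-like and oligodendrocyte-like cells. The classes share the libraries, so these counts are a description and not separate samples.

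Schwann-like cells, the myelinating glia of nerve roots, were sampled with 214 Con-labelled and 92 SMA-labelled cells. Their S phase sum was 535 CPM in Con-labelled and 913 CPM in SMA-labelled cells (log2 ratio 0.77, 0.64 to 0.90), and their mitosis sum 702 CPM in Con-labelled and 1702 CPM in SMA-labelled cells (log2 ratio 1.28, 1.17 to 1.38). Of the 40 genes, 39 were higher in SMA-labelled cells, the exception being Mcm2 at 19.4 and 14.6 CPM (-0.41, -1.45 to 0.53) in Con-labelled and SMA-labelled cells. Only 17 had 100 UMIs or more, and 17 of the 17 were above 0 (background 55%), 16 by 0.5 or more (background 9.4%). Ube2c was at 126 CPM in Con-labelled and 327 CPM in SMA-labelled cells (log2 ratio 1.38, 1.13 to 1.63). Top2a was at 59.2 CPM in Con-labelled and 111 CPM in SMA-labelled cells (log2 ratio 0.91, 0.50 to 1.31). Tipin was at 65.8 CPM in Con-labelled and 123 CPM in SMA-labelled cells (log2 ratio 0.90, 0.52 to 1.28). Schwann-like cells labelled SMA numbered 298 with all SMA barcodes kept, and 39 of the 40 genes were again higher (background 56.5%).

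Endothelial-like cells, which line the vessels, had less of both sets in the library labelled SMA. This rested on the treatment of the shared barcodes and on the larger cluster of the class. The S phase sum was 446 CPM in Con-labelled and 304 CPM in SMA-labelled cells (log2 ratio -0.55, -0.68 to -0.43), and the mitosis sum 488 CPM in Con-labelled and 312 CPM in SMA-labelled cells (log2 ratio -0.65, -0.77 to -0.53). All 17 genes with 100 UMIs or more were lower (background 50%), 11 of them by 0.5 or more (background 7.36%). Top2a was at 29.4 CPM in Con-labelled and 12.1 CPM in SMA-labelled cells (log2 ratio -1.28, -1.92 to -0.69), and Pcna at 80.1 CPM in Con-labelled and 68.1 CPM in SMA-labelled cells (log2 ratio -0.23, -0.52 to 0.043). With all SMA barcodes kept, the class grew from 332 to 852 SMA-labelled cells, the mitosis sum turned to 0.16, the S phase sum was at -0.14, and 17 of the 20 mitosis genes were higher (background 50.8%). In the larger cluster of the class the S phase sums were 483 CPM in Con-labelled and 298 CPM in SMA-labelled cells, and the mitosis sums 552 and 277 CPM. In the smaller, of 75 Con-labelled and 51 SMA-labelled cells, both sums were higher in the latter, at 227 and 338 CPM and at 114 and 515 CPM. No direction is drawn for the mitosis genes of endothelial-like cells for these reasons. The erythroid markers in endothelial-like cells stood at 35359 CPM in Con-labelled and 12069 CPM in SMA-labelled cells (7 of 8 lower), and their part in the result was not tested.

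In mural-like cells the S phase sum was 935 CPM in Con-labelled and 597 CPM in SMA-labelled cells (log2 ratio -0.65, -0.82 to -0.48), while the mitosis sum was 1183 CPM in Con-labelled and 1124 CPM in SMA-labelled cells (log2 ratio -0.074, -0.21 to 0.056), from 262 and 91 cells. All 20 S phase genes were lower there in SMA-labelled cells, 8 of them with 100 UMIs or more (background 53.6% below 0 among genes with as many). Of the 18 genes of both sets with as many UMIs, 6 were lower by 0.5 or more (background 9.91%) and 1 higher (background 7.01%), namely Cenpf, at 51.4 CPM in Con-labelled and 98.2 CPM in SMA-labelled cells (log2 ratio 0.93, 0.42 to 1.43). S phase UMIs per mitosis UMI were 0.790 in Con-labelled and 0.531 in SMA-labelled mural-like cells (log2 ratio -0.57, -0.79 to -0.36), a gap of the same sign as in OPC-like cells. Fibroblast-like cells also had a lower S phase sum, of 421 CPM in Con-labelled and 318 CPM in SMA-labelled cells (log2 ratio -0.41, -0.65 to -0.17) and a mitosis sum whose interval crossed 0, of 575 CPM in Con-labelled and 608 CPM in SMA-labelled cells (log2 ratio 0.079, -0.10 to 0.26), from 64 SMA-labelled cells, in which Uhrf1 and Bub1 had no UMI.

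Summed over the whole class, astrocyte-like cells differed little between the libraries. Their S phase sum was 464 CPM in Con-labelled and 473 CPM in SMA-labelled cells (log2 ratio 0.027, -0.036 to 0.091) and their mitosis sum 639 CPM in Con-labelled and 592 CPM in SMA-labelled cells (log2 ratio -0.11, -0.16 to -0.054). Of the 37 genes with 100 UMIs or more, 1 was lower by 0.5 or more (background 5.52%), Cdc20, at 32.2 CPM in Con-labelled and 21.3 CPM in SMA-labelled cells (log2 ratio -0.59, -0.88 to -0.32), and 0 were higher by as much (background 2.38%). Ube2c went the other way, at 78.5 CPM in Con-labelled and 95.5 CPM in SMA-labelled cells (log2 ratio 0.28, 0.14 to 0.43). With all SMA barcodes kept the mitosis sum of astrocyte-like cells was at 0.0019. The clusters of the class went both ways. The mitosis sum was 427 CPM in Con-labelled and 606 CPM in SMA-labelled cells of a cluster with 594 and 505 cells. It was 770 and 556 CPM in another, with 563 and 509 cells, and 729 and 642 CPM in the smallest. In ependymal-like cells, which line the central canal, the S phase sum was 955 CPM in Con-labelled and 815 CPM in SMA-labelled cells (log2 ratio -0.23, -0.34 to -0.12) and the mitosis sum 891 CPM in Con-labelled and 824 CPM in SMA-labelled cells (log2 ratio -0.11, -0.23 to 0.0013). Of the 24 genes with 100 UMIs or more in ependymal-like cells, 3 were lower by 0.5 or more (background 4.75%), all of them S phase genes, and 1 was higher by as much (background 3.59%), Ccnb1, at 20.6 CPM in Con-labelled and 32.3 CPM in SMA-labelled cells (log2 ratio 0.65, -0.057 to 1.42).

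In COP-like cells few UMIs stood behind the sums. COP-like cells had an S phase sum of 262 CPM in Con-labelled and 245 CPM in SMA-labelled cells (log2 ratio -0.094, -0.25 to 0.057), and a mitosis sum of 154 CPM in Con-labelled and 69.5 CPM in SMA-labelled cells (log2 ratio -1.15, -1.42 to -0.89), the latter from 742 and 141 UMIs. In all, 19 of the 20 mitosis genes were lower in SMA-labelled COP-like cells (background 44.8% of genes with 100 UMIs or more), but 2 had 100 UMIs or more, and Cdc45 had no UMI in SMA-labelled cells. The mitosis difference in COP-like cells changed sign under 3 alternatives, at 0.21 with no upper limit on genes, 0.37 at a finer clustering and 0.057 with cell-cycle genes in the clustering. Erythroid-like cells had an S phase sum of 91.9 CPM in Con-labelled and 117 CPM in SMA-labelled cells (log2 ratio 0.35, 0.19 to 0.52) and a mitosis sum of 396 CPM in Con-labelled and 379 CPM in SMA-labelled cells (log2 ratio -0.063, -0.15 to 0.025), and with cell-cycle genes in the clustering the S phase difference turned to -0.17. Oligodendrocyte-like cells had an S phase sum of 639 CPM in Con-labelled and 409.7 CPM in SMA-labelled cells (log2 ratio -0.64, -0.82 to -0.46) and a mitosis sum of 1314 CPM in Con-labelled and 1194 CPM in SMA-labelled cells (log2 ratio -0.14, -0.25 to -0.027), with most of the RNA in the shallow cluster described above. At a coarser clustering both turned, to 0.24 for S phase and 0.50 for mitosis. The mitosis difference also turned with each cell weighted equally (0.17), among cells of at least 5000 UMIs (0.13) and at a mitochondrial limit of 20% (0.0015), so no direction is drawn for oligodendrocyte-like cells.

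Cells were next sorted by their own counts, to see whether the sums reflect the number of cells with such RNA. Each cell was thinned to 2000 UMIs, and a set was called in a cell at 3 UMIs or more, which gives cells with S phase only, both, mitosis only or neither. A class cut from such counts is a range and not a cell type. In OPC-like cells 44.3% (41.8 to 46.8) of 1519 Con-labelled and 37.9% (35.6 to 40.1) of 1852 SMA-labelled cells had either set called, a log2 ratio of shares of -0.23 (-0.34 to -0.11). Unthinned, the shares were 61.5% and 54.2%, and 9 and 14 shallower cells had been left out of the thinned ones.

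Within that share, S phase only was called in 19.2% (17.2 to 21.2) of Con-labelled and 14.5% (12.95 to 16.2) of SMA-labelled OPC-like cells. Both sets were called in 15.6% (13.8 to 17.5) and 13.1% (11.6 to 14.7). Mitosis only was called in 9.55% (8.11 to 11.1) and 10.3% (8.91 to 11.7). The intervals of the shares thus did not overlap for S phase only, and overlapped for both sets and for mitosis only. Of the cells, 220 Con-labelled and 303 SMA-labelled ones lay within 1 UMI of the limit for S phase, and 113 and 122 for mitosis. Among cells with S phase called, mitosis was called in 44.9% of Con-labelled and 47.4% of SMA-labelled cells, against 14.6% and 14.2% of the other cells.

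In microglia-like cells the share with either set called was 13.3% (11.1 to 15.7) of Con-labelled and 21.5% (19.1 to 24.1) of SMA-labelled cells (log2 ratio of shares 0.69, 0.40 to 0.99), and unthinned 40.2% and 52.8%. In Schwann-like cells it was 17.9% (13.01 to 23.8) of Con-labelled and 30.4% (21.3 to 40.9) of SMA-labelled cells. Endothelial-like cells had it in 14.5% (11.3 to 18.1) of Con-labelled and 6.79% (4.30 to 10.1) of SMA-labelled cells, and mural-like cells in 30.6% (24.99 to 36.6) of Con-labelled and 17.98% (10.6 to 27.5) of SMA-labelled cells. The log2 ratio of shares was 0.76 (0.15 to 1.37) in Schwann-like, -1.09 (-1.76 to -0.42) in endothelial-like and -0.77 (-1.46 to -0.073) in mural-like cells. These differences had the direction of the sums, but shares and sums were taken from the same UMIs, so the shares are no separate support. With all SMA barcodes kept the log2 ratio of shares in endothelial-like cells was 0.15. Astrocyte-like cells had either set called in 14.4% (12.7 to 16.3) of Con-labelled and 12.5% (10.7 to 14.5) of SMA-labelled cells, with intervals that overlapped. As a background, either set was called in 2.20% (1.18 to 3.74) of Con-labelled and 2.59% (1.05 to 5.27) of SMA-labelled COP-like cells, at median depths of 7978 and 7168 UMIs. In erythroid-like cells, whose mitosis UMIs were mostly of Ube2c, it was called in 7.87% (6.22 to 9.80) of Con-labelled and 5.65% (3.62 to 8.36) of SMA-labelled cells, at 9936 and 9745 UMIs. OPC-like cells had medians of 5783 and 5622 UMIs and microglia-like cells of 7204 and 6919. The share in SMA-labelled endothelial-like cells lay between the erythroid-like shares and above the COP-like ones. In oligodendrocyte-like cells the shares were 36.7% and 24.6%, after 317 of 513 and 84 of 202 cells had been left out as too shallow, so they are no background.

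**Figure D4:**
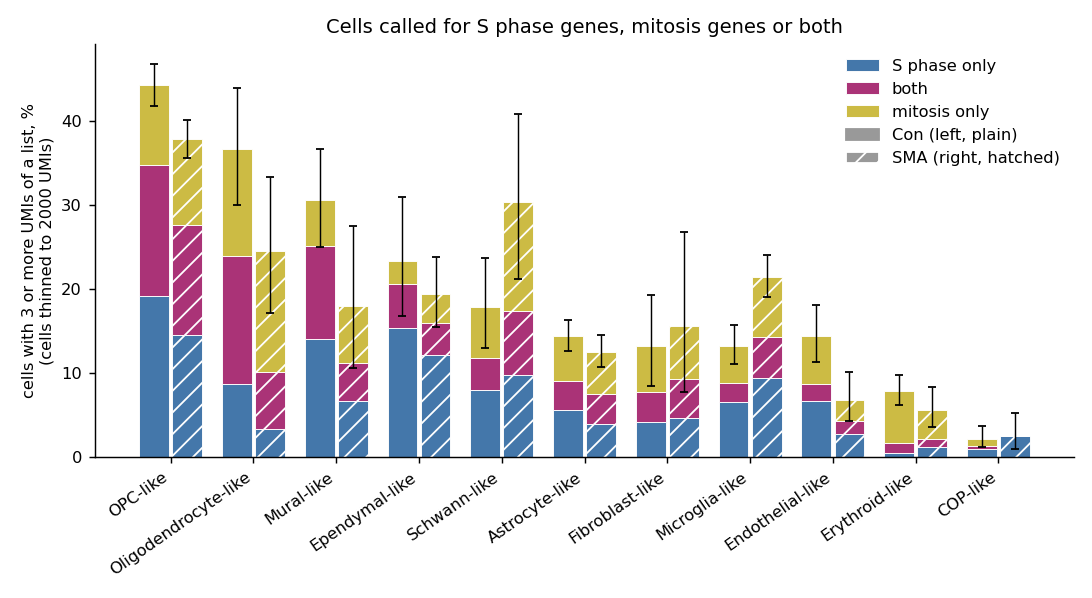
Share of cells (percent) called S phase only, both or mitosis only after thinning to 2000 UMIs, stacked by cell class with a bar for each library. OPC-like cells have the tallest bars for Con with a smaller S phase only part for SMA, and the microglia-like and Schwann-like bars are taller for SMA.

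Other genes of the cycle, from lists that are not part of the 40, were read in the same cells. Of 20 licensing and replication fork genes, 18 had 100 UMIs or more in OPC-like cells, and 16 of the 18 were lower and 2 higher in SMA-labelled cells (background 54.4% lower, median -0.24), none by 0.5 or more. Slbp, which binds histone mRNA, was at 185 CPM in Con-labelled and 167 CPM in SMA-labelled cells (log2 ratio -0.15, -0.24 to -0.050). Rfc2, of the clamp loader, was at 107 CPM in Con-labelled and 92.2 CPM in SMA-labelled cells (log2 ratio -0.21, -0.34 to -0.084). Prim1, the DNA primase, was at 64.8 CPM in Con-labelled and 48.6 CPM in SMA-labelled cells (log2 ratio -0.41, -0.59 to -0.24). Mcm10, a replication initiation factor, had few UMIs, at 8.86 CPM in Con-labelled and 6.62 CPM in SMA-labelled cells (log2 ratio -0.42, -0.90 to 0.054). Of 23 mitotic kinase, checkpoint and kinesin genes, 10 were lower and 13 higher (background 45.6% higher, median 0.053). Hmgb2, a chromatin protein of dividing cells, was at 629.6 CPM in Con-labelled and 715 CPM in SMA-labelled cells (log2 ratio 0.18, 0.14 to 0.23). Pttg1 (securin), which holds back separase, was at 88.8 CPM in Con-labelled and 116 CPM in SMA-labelled cells (log2 ratio 0.38, 0.26 to 0.51). Cks2, a CDK-binding protein, was at 152 CPM in Con-labelled and 159 CPM in SMA-labelled cells (log2 ratio 0.068, -0.034 to 0.17). Kif2c, a microtubule-depolymerizing kinesin, was at 22.2 CPM in Con-labelled and 18.01 CPM in SMA-labelled cells (log2 ratio -0.30, -0.59 to -0.012). The fork list was thus lower more often than the background, while the mitotic list was divided as the 20 mitosis genes were.

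Upstream of S phase, 10 of 14 G1/S cyclin, kinase and E2F genes were lower in SMA-labelled OPC-like cells (background 54.4%, median -0.18). Ccnd1, cyclin D1, was at 339.9 CPM in Con-labelled and 243 CPM in SMA-labelled cells (log2 ratio -0.49, -0.56 to -0.41). Cdk4, its kinase, was at 558 CPM in Con-labelled and 466 CPM in SMA-labelled cells (log2 ratio -0.26, -0.32 to -0.20). E2f2, an E2F factor of low abundance, was at 10.1 CPM in Con-labelled and 7.26 CPM in SMA-labelled cells (log2 ratio -0.47, -0.92 to -0.022). The CDK inhibitors went separate ways. Cdkn1a (p21), an inhibitor of CDK2 that also binds PCNA, was at 37.2 CPM in Con-labelled and 87.5 CPM in SMA-labelled cells (log2 ratio 1.23, 1.05 to 1.42), the widest gap of any of these genes in OPC-like cells. Cdkn1c (p57) was at 173 CPM in Con-labelled and 147 CPM in SMA-labelled cells (log2 ratio -0.24, -0.34 to -0.13). Cdkn1a was higher in SMA-labelled cells in other classes too, at 64.5 CPM in Con-labelled and 245 CPM in SMA-labelled cells (log2 ratio 1.93, 1.80 to 2.06) among astrocyte-like cells. Among endothelial-like cells Cdkn1a was at 131 CPM in Con-labelled and 364 CPM in SMA-labelled cells (log2 ratio 1.47, 1.31 to 1.63). Among microglia-like cells, in which both sets were higher, it was at 306 CPM in Con-labelled and 451 CPM in SMA-labelled cells (log2 ratio 0.56, 0.48 to 0.64). The FoxM1 and MuvB genes were too few in UMIs to be told apart, with intervals that crossed 0 for Mybl2 (-0.35), Lin9 (0.15), Lin54 (-0.13) and Lin52 (0.31).

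In microglia-like cells, 14 of the 14 licensing and fork genes with 100 UMIs or more were higher in SMA-labelled cells (background 58.1%, median 0.41), 6 of them by 0.5 or more (background 5.58%). Of the mitotic kinase, checkpoint and kinesin genes, 18 of 18 were higher (median 0.64), 14 of them by as much. Hmgb2 was at 345 CPM in Con-labelled and 495 CPM in SMA-labelled cells (log2 ratio 0.52, 0.45 to 0.60). The G1/S genes were evenly divided, against the same background, 5 lower and 5 higher, with Ccnd1 at 59.9 CPM in Con-labelled and 67.5 CPM in SMA-labelled cells (log2 ratio 0.17, -0.017 to 0.36) and Cdk4 at 194 CPM in Con-labelled and 188 CPM in SMA-labelled cells (log2 ratio -0.049, -0.16 to 0.060).

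The states called from the 40 genes could be compared with genes that had not been used to call them. In Con-labelled OPC-like cells the licensing and fork genes outside the 40 summed to 367, 1580.1, 2301 and 618 CPM in cells with neither set, S phase only, both and mitosis only, and to 349, 1589.7, 2191 and 672 CPM in SMA-labelled cells. The mitotic genes outside the 40 stood in the same order of states at 236, 678, 4009 and 4584 CPM in Con-labelled and 248, 724, 4525 and 5247 CPM in SMA-labelled cells. In these OPC-like cells licensing genes were highest with both sets called, and mitotic genes with mitosis only. In Con-labelled microglia-like cells the mitotic genes were instead higher with both sets, at 4464 CPM (4166 to 4778, 20 cells), than with mitosis only, at 3495 CPM (3299 to 3699, 39 cells), and in SMA-labelled ones the intervals overlapped. Clustered histone genes, whose expression is coupled to DNA replication but which mostly lack a poly(A) tail and so are caught in part, were at 351, 231, 1949.6 and 645 CPM and 623, 439, 3208 and 1574 CPM over the same states. Within each state the libraries lay close for the licensing genes, and the histone sum was higher in SMA-labelled cells of all 4 states.

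The G1/S genes were at 1203, 1760.1, 1699.8 and 1144 CPM over the states neither, S phase only, both and mitosis only in Con-labelled OPC-like cells and at 1042, 1492, 1450.1 and 959.9 CPM in SMA-labelled ones, lower in the latter in each state. The CDK inhibitors were at 354, 320.1, 583 and 450.1 CPM and 383, 293, 655 and 539 CPM. The COP markers, genes of the next step of the lineage, were at 1133, 779, 768 and 928 CPM in Con-labelled and 919, 695, 643 and 818 CPM in SMA-labelled cells over the same states, highest in cells with neither set. Depth moved with the states, with medians of 5374 and 5318 UMIs in cells with neither set and 7136 and 7055 UMIs in cells with both, and its part in these orders was not tested.

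**Figure D5:**
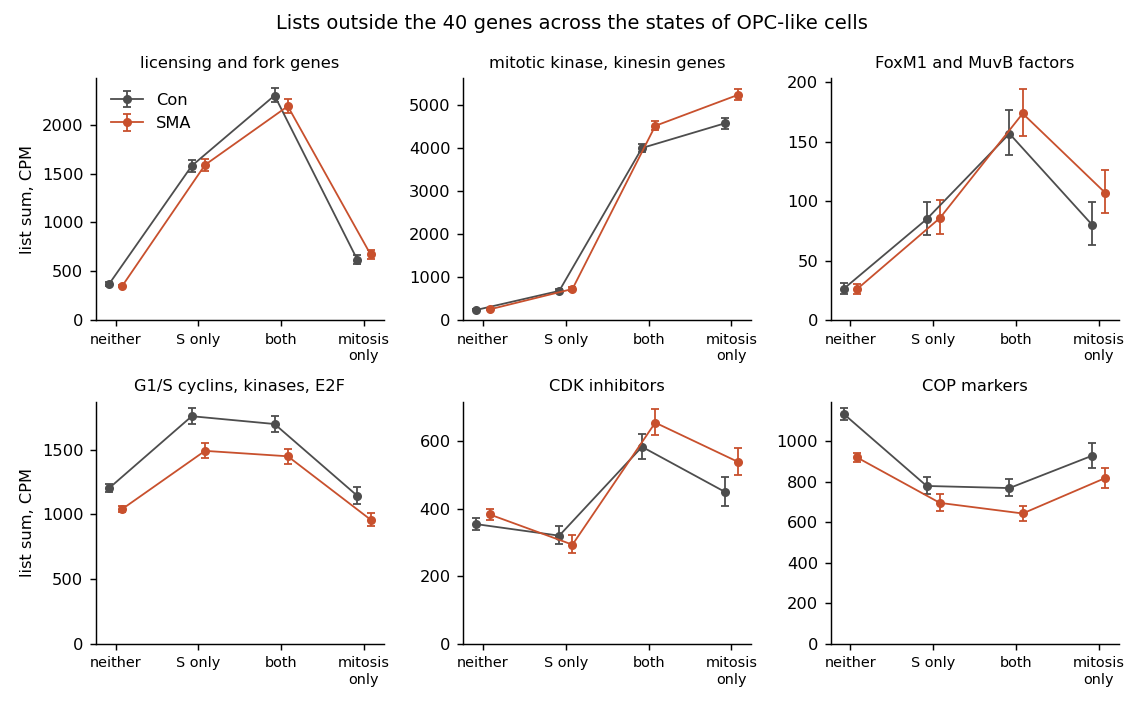
Summed CPM of gene lists outside the 40 members (linear axes) in OPC-like cells with neither set, S phase only, both or mitosis only called, with a line for each library and bars for the exact Poisson interval. Licensing genes peak in the both state and mitotic genes in the mitosis only state in the Con and the SMA library.

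The barcodes left out also carried these genes. Those with over 4000 genes, 817 Con-labelled and 459 SMA-labelled, had S phase sums of 510.1 and 489 CPM and mitosis sums of 1139 and 1277 CPM, so the upper limit removed cells rich in mitosis UMIs from both libraries. The SMA-labelled copies of shared barcodes, 6509 barcodes with a median of 1373 UMIs, were at 623 CPM for S phase and 971 CPM for mitosis. Over all kept cells the sums were 576 and 645 CPM for S phase and 792 and 1029.5 CPM for mitosis in Con-labelled and SMA-labelled cells. Both were thus higher in the library labelled SMA as a whole, in which OPC-like cells made up a larger share of cells, while the S phase sum of OPC-like cells was lower.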

How the data were processed

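Spinal cord cells of 1 SMA and 1 Con library were analyzed. The authors made the deposited counts from 10x Genomics 3′ libraries (version 3 chemistry) with Cell Ranger, version 4.0.0 per the file headers, and mm10 per the submitters' processing notes. The deposited values are raw UMI counts per gene and barcode, not normalized. Barcodes with 200 to 4000 genes and under 10% mitochondrial UMIs were kept, after the authors' stated limits. SMA barcodes also listed in Con were left out, and so was a cluster of 1339 Con-labelled barcodes with a median ribosomal-protein share over 30%. No doublet caller was run, so doublets were limited only by the 4000 genes.

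Counts scaled to 10000 per cell and log-transformed were reduced (2000 variable genes, 30 components) and divided by the Louvain method at resolution 1 on 20 nearest neighbors, without the 40 members, other cell-cycle genes, histone, ribosomal-protein and mitochondrial genes, Smn1, Xist and Y-linked genes. Clusters were named from fixed markers among their 60 genes of highest fold. The rule that a cluster with 0 such markers stays unnamed was set after the data were seen. Since names were rebuilt, they may differ from the study's. UMIs were summed per class and library as CPM. Sums have exact Poisson, ratios exact conditional binomial and shares exact Clopper-Pearson intervals, and ratios of shares or of ratios intervals on the log scale. With 1 library per group there was no test. The members and lists were chosen with earlier results of these data known. Values in full were given for the 5 members with most UMIs in each set, for members with an interval off 0 on the same side in at least 2 classes, and for 2 genes of most UMIs and 2 of largest difference in OPC-like cells in each other list. The remaining members were named for their role or as ends of a range after their values were seen. Positions are from GENCODE M21 (GRCm38) and promoters from RefSeq (GRCm38.p6). Scripts were tested on simulated data and run with Python 3.11.15, scikit-learn 1.9.0, igraph 0.11.9 and scipy 1.17.1.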

Additional observations from a re-analysis of the deposited data

Results flagged for a closer look

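The S phase sum stood furthest apart between classes in Schwann-like cells, with a log2 ratio of SMA over Con of 0.77, and in mural-like cells, with -0.65, the 1 library of each label moving in opposite directions. This difference between the classes was not tested. The mitosis sum likewise differed most between Schwann-like cells, at 1.28, and COP-like cells, at -1.15, and this difference was not tested either. The Schwann-like and mural-like values rest on 92 and 91 SMA-labelled cells, and the COP-like value on 141 UMIs in SMA-labelled cells. The COP-like value changed sign under 3 alternatives, at 0.21 with no upper limit on genes, 0.37 at a Louvain resolution of 2 and 0.057 with cell-cycle genes in the clustering, and was -0.13 with all SMA barcodes kept, so no direction is drawn from it. With those barcodes kept, the mural-like S phase value was -0.35, and the Schwann-like values were 0.55 for S phase and 0.99 for mitosis.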

How the results depend on the processing

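Values are log2 ratios of SMA over Con unless they are numbers of members, "reversed" marks a change of sign of a value whose interval lay off 0, and "sign changed" one of a value whose interval crossed 0. Numbers of members are given here without the share over all genes at the same setting, so no result is drawn from them. Centered on the median gene, the S phase sum was 0.10 in Astrocyte-like, and the mitosis sum was -0.035 in Astrocyte-like cells. As the median of the members, the S phase sum was -0.11 in Astrocyte-like (sign changed), -0.75 in Endothelial-like and -0.40 in OPC-like, and the mitosis sum was -0.17 in Astrocyte-like and 0.040 in OPC-like cells. With all SMA barcodes kept, the mitosis sum was 0.0019 in Astrocyte-like (reversed), 0.16 in Endothelial-like (reversed) and 0.13 in OPC-like, the S phase sum was -0.14 in Endothelial-like, S phase over mitosis was -0.29 in Endothelial-like (sign changed) and 0.31 in Oligodendrocyte-like (reversed), the share called was 0.15 in Endothelial-like (reversed), the number of members lower by 0.5 was 0 in Astrocyte-like and 2 in Endothelial-like, and the number of members higher by 0.5 was 3 in Endothelial-like cells. At a mitochondrial limit of 20%, the mitosis sum was -0.19 in Astrocyte-like, 0.026 in OPC-like and 0.0015 in Oligodendrocyte-like (reversed) cells. With no upper limit on genes, the mitosis sum was -0.25 in Astrocyte-like, 0.21 in COP-like (reversed), -0.44 in Endothelial-like, 0.67 in Microglia-like and -0.034 in OPC-like (reversed), S phase over mitosis was 0.29 in Astrocyte-like, -0.29 in COP-like (reversed), -0.39 in Endothelial-like (sign changed) and -0.30 in OPC-like, and the S phase sum was -0.83 in Endothelial-like and 0.32 in Microglia-like cells. With cell-cycle genes in the clustering, the mitosis sum was -0.0013 in Astrocyte-like, 0.057 in COP-like (reversed) and 0.90 in Microglia-like, S phase over mitosis was -0.13 in COP-like (reversed), -0.067 in Erythroid-like (reversed), -0.27 in OPC-like and 0.19 in Oligodendrocyte-like (reversed), and the S phase sum was -0.17 in Erythroid-like (reversed) and -0.20 in OPC-like cells. Without the member with most UMIs, the mitosis sum was -0.17 in Astrocyte-like and 0.020 in OPC-like, and the S phase sum was -0.39 in OPC-like cells. At a Louvain resolution of 2, the mitosis sum was 0.37 in COP-like (reversed), and S phase over mitosis was -0.43 in COP-like (reversed) cells. With each cell weighted equally, the mitosis sum was 0.75 in Microglia-like and 0.17 in Oligodendrocyte-like (reversed) cells. In unthinned cells, the share called was 0.39 in Microglia-like and 0.27 in Oligodendrocyte-like (reversed) cells. With each shared barcode given to the library with more UMIs, the mitosis sum was 0.11 in OPC-like, and S phase over mitosis was -0.50 in OPC-like cells. At a Louvain resolution of 0.5, the S phase sum was 0.24 in Oligodendrocyte-like (reversed), the mitosis sum was 0.50 in Oligodendrocyte-like (reversed), and the share called was 0.069 in Oligodendrocyte-like (reversed) cells. In cells of at least 5000 UMIs, the mitosis sum was 0.13 in Oligodendrocyte-like (reversed), and the number of members lower by 0.5 was 3 in Astrocyte-like cells. In cells thinned to 1000 UMIs, the share called was 0.054 in Oligodendrocyte-like (reversed) cells. At a minimum of 50 UMIs, the number of members lower by 0.5 was 2 in Astrocyte-like and 23 in Endothelial-like cells. At a minimum of 300 UMIs, the number of members lower by 0.5 was 1 in Endothelial-like cells. When all SMA barcodes were kept and, chosen after seeing the data, unnamed clusters given to the class leading their markers, the S phase sum was -0.28 in OPC-like and 0.34 in Microglia-like, and the mitosis sum was 0.14 in OPC-like and 0.67 in Microglia-like cells. With cell-cycle genes in the clustering and the same treatment of unnamed clusters, the S phase sum was -0.30 in OPC-like, the mitosis sum was 0.052 in OPC-like and 0.76 in Microglia-like, and S phase over mitosis was -0.35 in OPC-like cells. With unnamed clusters given to the class leading their markers (chosen after seeing the data), the mitosis sum was 0.74 in Microglia-like cells. Of the remaining values under an alternative, 179 of the main results and 269 of those for other classes moved by less than their counting interval (numbers of members: stayed within 1.5 times), and 82 for other classes moved by more. Among these, 4, 18 and 16 changed sign where the interval had crossed 0. For each value that moved or changed sign, the cause was not tested. The S phase sum and S phase over mitosis of OPC-like cells stayed below 0, and both sums of microglia-like cells above 0, under each alternative run, but with all SMA barcodes kept some clusters led by microglia markers stayed unnamed and out of the sums, and so did OPC clusters led by cell-cycle genes when those genes were in the clustering, unless unnamed clusters were given to their leading class. No paired analysis was possible because each group has 1 library and the labels give no shared replicate number. The intervals show only what depth limits, and the spread between animals is unknown.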
